A study of Mus musculus with 4 samples.

Results

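The protocadherins were taken as all protein-coding genes of GENCODE M21 (mouse build GRCm38) whose symbol starts with Pcdh. This gave 69 of the 52636 genes in the deposited tables. They comprised 14 genes of the Pcdha cluster, 22 of the Pcdhb cluster, 21 of the Pcdhg cluster and 12 genes outside the clusters, called non-clustered below. The study sequenced RNA from the hippocampus of C57BL/6 mice at postnatal day 40, as 2 inputs (lysate RNA without immunoprecipitation) and 2 samples precipitated with anti-YTHDF2, an antibody to a protein that binds m6A-modified mRNA. All 4 samples carried the same strain, tissue and age labels, and no genotype other than wild type was named. The immunoprecipitated libraries were not analysed here, so every value below is of the input and nothing is said of recovery by the antibody. The labels do not say whether the 2 input libraries came from different animals, so the spread between them may be technical.

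Protocadherins are transmembrane proteins of the cadherin superfamily that bind their own kind on a facing cell. In the clustered genes each variable exon encodes a whole extracellular domain and the membrane span of 1 isoform. Variable exons of the Pcdha and Pcdhg clusters are spliced to constant exons that the cluster shares, whereas Pcdhb genes have no constant exons. A neuron transcribes a few isoforms from its clusters, chosen through its promoters, and the resulting mix lets branches of a neuron tell self from non-self. The last variable exons of the Pcdha and Pcdhg clusters, called C-type, are used more widely among neurons than the others, called alternate. Non-clustered protocadherins fall mainly into the delta-1 and delta-2 families, which differ in their cytoplasmic motifs and act in axon growth, synapse formation and synapse loss.

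The coding sequence of nearly every member lay in a long exon. A coding exon of at least 2000 bases was found in 68 of the 69 members, against 3.31% of nuclear protein-coding genes, and the median longest coding exon was 2406 bases against 339. Pcdh15 was the exception, with 1441 bases. RefSeq (GRCm38.p6) promoter windows, reaching from 250 bases before to 50 bases after the start of transcription, were at hand for 9 non-clustered members. These windows were searched for the letters CG, which read the same on both strands. At least 1 CG was held by 94.6% of all 32851 windows, with a median of 7. The 200 bases before the start are shown for the members with the most and the fewest CG in their windows, and for the member with many CG whose level was lowest. The CG letters are in capitals.
Pcdh17, chr14:84443363-84443562, plus strand: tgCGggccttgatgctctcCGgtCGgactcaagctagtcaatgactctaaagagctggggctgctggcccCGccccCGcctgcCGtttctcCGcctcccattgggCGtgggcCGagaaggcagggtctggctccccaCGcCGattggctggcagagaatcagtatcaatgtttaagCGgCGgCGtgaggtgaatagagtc
Pcdh18, chr3:49757317-49757516, minus strand: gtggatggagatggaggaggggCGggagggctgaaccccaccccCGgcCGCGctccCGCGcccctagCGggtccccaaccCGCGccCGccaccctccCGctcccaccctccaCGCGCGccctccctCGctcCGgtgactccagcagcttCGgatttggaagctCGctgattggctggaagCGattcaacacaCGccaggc
Pcdh20, chr14:88471397-88471596, minus strand: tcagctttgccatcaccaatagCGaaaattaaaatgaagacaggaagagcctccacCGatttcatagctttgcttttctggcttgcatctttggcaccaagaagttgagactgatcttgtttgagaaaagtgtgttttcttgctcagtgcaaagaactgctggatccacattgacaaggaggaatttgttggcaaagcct
The stretch of Pcdh17 held 14 CG, that of Pcdh18 held 20 and that of Pcdh20 held 2. Over the whole windows the numbers were 26 for Pcdh17, 24 for Pcdh10, 23 for Pcdh18, 18 each for Pcdh9 and Pcdh19, 14 for Pcdh8, 11 for Pcdh7, 8 for Pcdh15 and 4 for Pcdh20. The Pcdh15 window (chr10:73821617-73821916) lay inside the gene as GENCODE M21 places it, not at its first base. The starts used for Pcdh7 and, by a few bases, for Pcdh18 also lay inside the gene. For 2 of these genes the number of CG and the level described below did not run in parallel, since Pcdh20 was among the higher and Pcdh18 among the lower. Pcdh18 was chosen for its low level, and a relation over all 9 windows was not tested.

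The libraries held 2563069 counts (the shallower) and 3334451 counts (the deeper). Levels are given as raw counts, as CPM (counts per 1000000 of a library's total) and as the deposited FPKM (CPM per kilobase of the gene's length), and levels of genes are compared on FPKM or another value per length. An order by CPM, which is not corrected for length, served to choose the genes that are named. Errors after ± are the SD over the 2 libraries. A count of 0 allows up to 3 counts, which is 1.17 CPM at the lower depth and 0.900 CPM at the higher. Each ratio is the log2 of the deeper library over the shallower, of CPM + 0.5 with TMM library factors, and carries exact 95% binomial intervals that cover counting error only. With 1 group there was no comparison of conditions and no p-value. Markers of the labelled tissue were present: 4 of 4 dentate granule markers and 5 of 5 pyramidal markers reached 5 CPM, the first led by Prox1 (542 and 758 counts) and the second by Slc17a7 (3649 and 3774 counts). Markers of other cells were present as well, led in CPM by the oligodendrocyte genes, and 4 of 4 genes listed for cortex or other regions reached 5 CPM. Not every list passed in full: 3 of 5 interneuron, 1 of 3 endothelial and 1 of 3 choroid plexus markers reached 5 CPM. In bulk tissue, fewer cells of a type and less RNA per cell cannot be told apart.

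Most protocadherins were measurable. A mean of at least 5 CPM was reached by 65 of the 69 members, against 47.9% of nuclear protein-coding genes (10446 of 21806). The 65 were all 14 Pcdha genes, 19 of 22 Pcdhb genes, all 21 Pcdhg genes and 11 of 12 non-clustered genes. The 4 others were Pcdhb1, Pcdhb10, Pcdhb21 and Pcdh12. The members summed to 8246 counts (shallower) and 10568 counts (deeper), or 3193 ± 33.9 CPM. In the same order of libraries, non-clustered genes held 51.0% (exact 95% interval 49.9 to 52.1) and 53.8% (52.8 to 54.7) of these counts. Pcdhg genes held 31.7% (30.7 to 32.7) and 30.2% (29.3 to 31.04), Pcdha genes 8.95% (8.34 to 9.59) and 8.71% (8.18 to 9.26), and Pcdhb genes 8.34% (7.76 to 8.96) and 7.35% (6.86 to 7.87).

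The order of the groups depended on the length used. Summed FPKM was 406 and 435 for the non-clustered genes, 283 and 265 for Pcdhg, 70.6 and 59.2 for Pcdhb, and 54.4 and 51.7 for Pcdha, in the shallower and deeper library. By that sum the non-clustered genes were highest and Pcdha lowest in both libraries. The FPKM length equalled, within 1 base, the average of all GENCODE M21 transcript lengths for 67 of the 68 members with a count, and Pcdh17 was the other. For Pcdha and Pcdhg genes that length takes in the constant exons that the cluster shares. Bases that no other gene covered, called own bases, made up a median of 46.4% of the exonic bases of a Pcdha gene and 54.8% of a Pcdhg gene, but 100% of a Pcdhb gene and of a non-clustered gene. Of the 107 protein-coding genes in the annotation whose every exonic base lay in another gene of the same strand, 15.0% and 15.9% had a count in the shallower and the deeper library, against 64.0% and 63.9% of all nuclear protein-coding genes. How reads in shared exons were assigned is not given in the sources used here. Per kilobase of own bases, the Pcdhg sum was highest at 371 ± 30.8 CPM per kb, followed by the non-clustered genes at 198 ± 7.72, Pcdha at 109 ± 2.92 and Pcdhb at 66.6 ± 10.1. This sum left out Pcdha4 and Pcdhga10, which had fewer than 500 own bases. It divides all counts of a gene by its own bases, so it is too high wherever reads of shared bases were counted. Own bases are also taken over all exons of a gene, not over the mean transcript length. The change of order from FPKM thus mixes both differences in length and cannot be laid to shared exons alone.

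**Figure D1:**
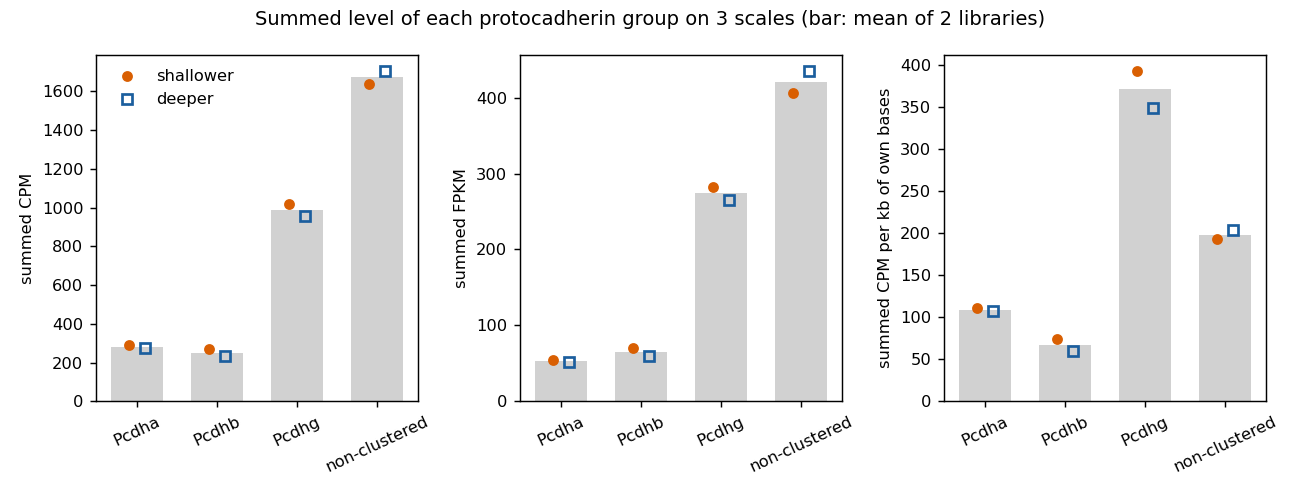
Summed level of the Pcdha, Pcdhb, Pcdhg and non-clustered genes as CPM, as deposited FPKM and as CPM per kilobase of own bases, on linear axes from 0. Grey bars are the mean of the 2 input libraries and the points are the libraries. The non-clustered genes were highest by CPM and FPKM, and Pcdhg by own bases, where Pcdha4 and Pcdhga10 were left out.

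Among the non-clustered genes, the delta-1 family was led by Pcdh1, a broadly expressed adhesion gene (ENSMUSG00000051375, chromosome 18, 38185914 to 38212053, minus strand, GRCm38). Pcdh1 had 1207 counts at the lower depth and 1930 at the higher, which is 159 and 196 FPKM. It was the highest protocadherin by FPKM in both libraries, at 177 ± 25.8, and lay above 97.5% of nuclear protein-coding genes that reached 5 CPM. By own bases it ranked below Pcdhgc5 (78.2 CPM per kb) and Pcdhga11 (61.1). The 1256 own bases of Pcdhga11 leave out 1381 bases that have a gene only on the other strand, which raises its value. Its rank above Pcdh1 rested on that choice. Pcdh1 alone held 28.7% (27.3 to 30.1) and 34.0% (32.7 to 35.2) of the non-clustered counts. These intervals did not overlap, and the log2 ratio of Pcdh1 was 0.44 (0.34 to 0.55). Pcdh7 (chromosome 5, 57717967 to 58133230, plus strand) had 360 and 406 counts, or 40.2 and 34.8 FPKM. The noncoding gene 4932441J04Rik lies on the other strand over 21.1% of the exonic bases of Pcdh7 and had 23 counts in each library. Pcdh9 (chromosome 14, 93013410 to 93890679, minus strand) had 301 and 432 counts, or 30.7 and 33.8 FPKM. Pcdh11x, an X-linked gene (120290259 to 120910619, plus strand), had 79 and 105 counts and lay lower, at 6.66 and 6.80 FPKM. The delta-1 genes summed to 1947 and 2873 counts, with a log2 ratio of 0.33 (0.24 to 0.41).

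The delta-2 family comprised Pcdh8, Pcdh10, Pcdh17, Pcdh18 and Pcdh19, with 1799 and 2136 counts in all and a log2 ratio of 0.01 (-0.08 to 0.10). Pcdh19, an X-linked gene in which human variants cause an epilepsy (133582860 to 133688987, minus strand), had 587 and 657 counts, or 43.3 and 37.2 FPKM. Pcdh10, which takes part in the removal of excitatory synapses (chromosome 3, 45378398 to 45435623, plus strand), had 470 and 553 counts, or 32.9 and 29.8 FPKM. Pcdh8, also called arcadlin and induced by neuronal activity in the hippocampus (chromosome 14, 79766775 to 79771312, minus strand), had 252 and 314 counts, or 30.7 and 29.4 FPKM. With TMM factors the log2 ratio was -0.07 (-0.24 to 0.09) for Pcdh19, -0.00 (-0.18 to 0.18) for Pcdh10 and 0.08 (-0.16 to 0.33) for Pcdh8, all within counting error. Pcdh17, which acts in axon growth and presynaptic assembly (chromosome 14, 84443563 to 84539002, plus strand), had 478 and 593 counts, or 19.6 and 18.7 FPKM. Pcdh17 was the member whose FPKM length, 9509 bases, was not the mean transcript length, 6685 bases. Pcdh18 (chromosome 3, 49743296 to 49757325, minus strand), whose promoter is shown above, was at the other end with 12 and 19 counts, or 1.76 and 2.15 FPKM.

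The other 3 non-clustered genes belong to neither family. Pcdh20 (chromosome 14, 88464743 to 88471396, minus strand), the gene with the fewest promoter CG, had 411 and 624 counts, or 37.3 and 43.5 FPKM. Pcdh15, a component of the tip links of hair cells that is also transcribed in oligodendrocyte precursors (chromosome 10, 73099342 to 74649737, plus strand), had 48 and 51 counts, or 3.83 and 3.13 FPKM. All 3 oligodendrocyte precursor markers were present beside it, with a summed level of 255 and 238 CPM, and Pdgfra had 142 and 208 counts. Their part in the level of Pcdh15 was not tested. Pcdh12, an endothelial protocadherin (chromosome 18, 38267089 to 38284402, minus strand), had 0 counts in both libraries. The 3 endothelial markers summed to 16.0 and 11.1 CPM, with 13 and 17 counts for Flt1, 14 and 11 for Cldn5 and 14 and 9 for Pecam1, so no defining marker was at 0.

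By mean FPKM the non-clustered genes ran from Pcdh1 (177 ± 25.8) to Pcdh20 (40.4 ± 4.40), Pcdh19 (40.2 ± 4.27), Pcdh7 (37.5 ± 3.78), Pcdh9 (32.2 ± 2.24), Pcdh10 (31.3 ± 2.22), Pcdh8 (30.1 ± 0.917), Pcdh17 (19.2 ± 0.644), Pcdh11x (6.73 ± 0.102), Pcdh15 (3.48 ± 0.497), Pcdh18 (1.96 ± 0.271) and Pcdh12 (listed at 0). The library values of Pcdh20, Pcdh19 and Pcdh7 overlapped, as did those of Pcdh9, Pcdh10 and Pcdh8, so the order inside each of these trios did not exceed the spread between libraries. The other neighbours in this order did not overlap. A mean of 30 FPKM or more was reached by 7 of the 12 non-clustered genes and by 1 of the 57 clustered genes. Per kilobase of own bases, 2 of the 12 non-clustered and 4 of the 57 clustered genes reached 30 CPM or more, so the contrast was smaller. The 4 were Pcdhgc5, Pcdhga11, Pcdhgc3 and Pcdhac2. The own bases of Pcdhga11 and Pcdhgc3 leave out 1381 and 1559 bases under genes on the other strand, which raises their values. On the same scale Pcdh1 had 59.7 ± 8.67 CPM, Pcdh20 31.6 ± 3.45 and Pcdh8 23.5 ± 0.716, whereas Pcdh19 had 20.5 ± 2.17 and Pcdh10, with 15734 own bases, had 11.1 ± 0.788.

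**Figure D2:**
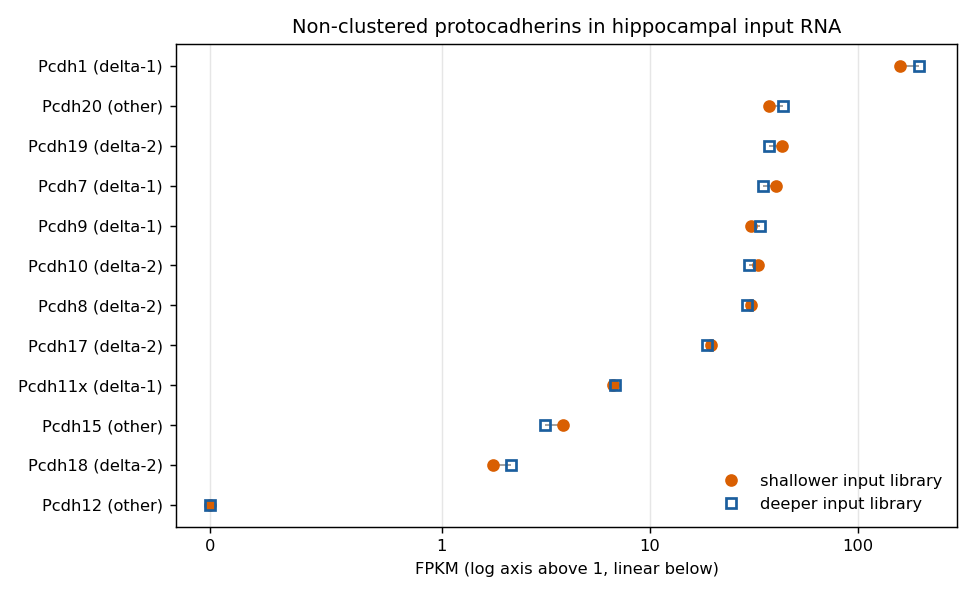
Deposited FPKM of the 12 non-clustered protocadherins in the shallower (filled circles) and deeper (open squares) input library, on an axis that is logarithmic above 1 and linear below, ordered by mean FPKM with the family in parentheses. Pcdh1 lay above the others at 159 and 196 FPKM, a run of 7 genes lay between 18.7 and 43.5, and Pcdh12 was at 0.

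Of the 5 C-type genes, Pcdhgc5, Pcdhgc3 and Pcdhac2 lay above the alternate genes' median on each scale and in both libraries, and Pcdhgc4 and Pcdhac1 did not. Pcdhgc5, an isoform known at GABAergic synapses (ENSMUSG00000102543, chromosome 18, 37819513 to 37841873, plus strand), had 910 and 1217 counts. This was 34.8% of all Pcdhg counts (33.0 to 36.7) in the former library and 38.2% (36.5 to 39.9) in the latter. Its FPKM was 123 and 126, the highest of the clustered genes in both libraries and above 95.7% of nuclear protein-coding genes that reached 5 CPM. The Pcdhgc5 level was 20.6 ± 2.35 times that of the median alternate Pcdhg gene by FPKM and 6.81 ± 1.30 times per kilobase of own bases. By raw counts, which are not corrected for length, it was 12.9 ± 1.70 times, so the fold depended on the length used. Pcdhgc3, which acts on dendrite growth (37806364 to 37841873), had 274 and 242 counts and was 3.77 ± 0.671 times the median alternate gene by FPKM and 4.19 ± 0.424 times by own bases. The own bases of Pcdhgc3 leave out 1559 bases under a gene on the other strand, which raises the latter fold. Pcdhgc4, an isoform needed for the survival of cortical interneurons (37815079 to 37841873), had 64 and 67 counts. Pcdhgc4 did not stand out, at 1.07 ± 0.0629 times the median alternate gene by FPKM and 0.556 ± 0.0104 times by own bases. The C-type genes together made up 47.7% (45.8 to 49.7) and 47.9% (46.1 to 49.6) of the Pcdhg counts, from 3 of the 21 genes. Shares of raw counts, like the fold by counts, are not corrected for length.

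In the Pcdha cluster the highest gene was Pcdhac2, an isoform known for the spacing of serotonergic axons (chromosome 18, 37143503 to 37187657, plus strand). It had 294 and 371 counts, or 39.8% (36.3 to 43.5) and 40.3% (37.1 to 43.6) of the Pcdha counts. Its FPKM of 19.5 and 18.9 was 7.97 ± 0.498 times that of the median alternate Pcdha gene, and 6.25 ± 0.701 times by own bases. Pcdhac1 (37090013 to 37187657, plus strand) had 71 and 45 counts, or 5.11 and 2.49 FPKM. The log2 ratio of Pcdhac1 was -0.87 (-1.47 to -0.33), and its level was 2.18 times that of the median alternate gene in the shallower library but 1.005 times in the deeper by FPKM, and 1.93 and 0.826 times by own bases. The exons of Pcdhac1, Pcdhac2, Pcdhgc4 and Pcdhgc5 shared 0% of their 31-base words with any other gene. That of Pcdhgc3 shared 56.0%, with the antisense gene BC037039 (2 and 3 counts) as the main partner.

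**Figure D3:**
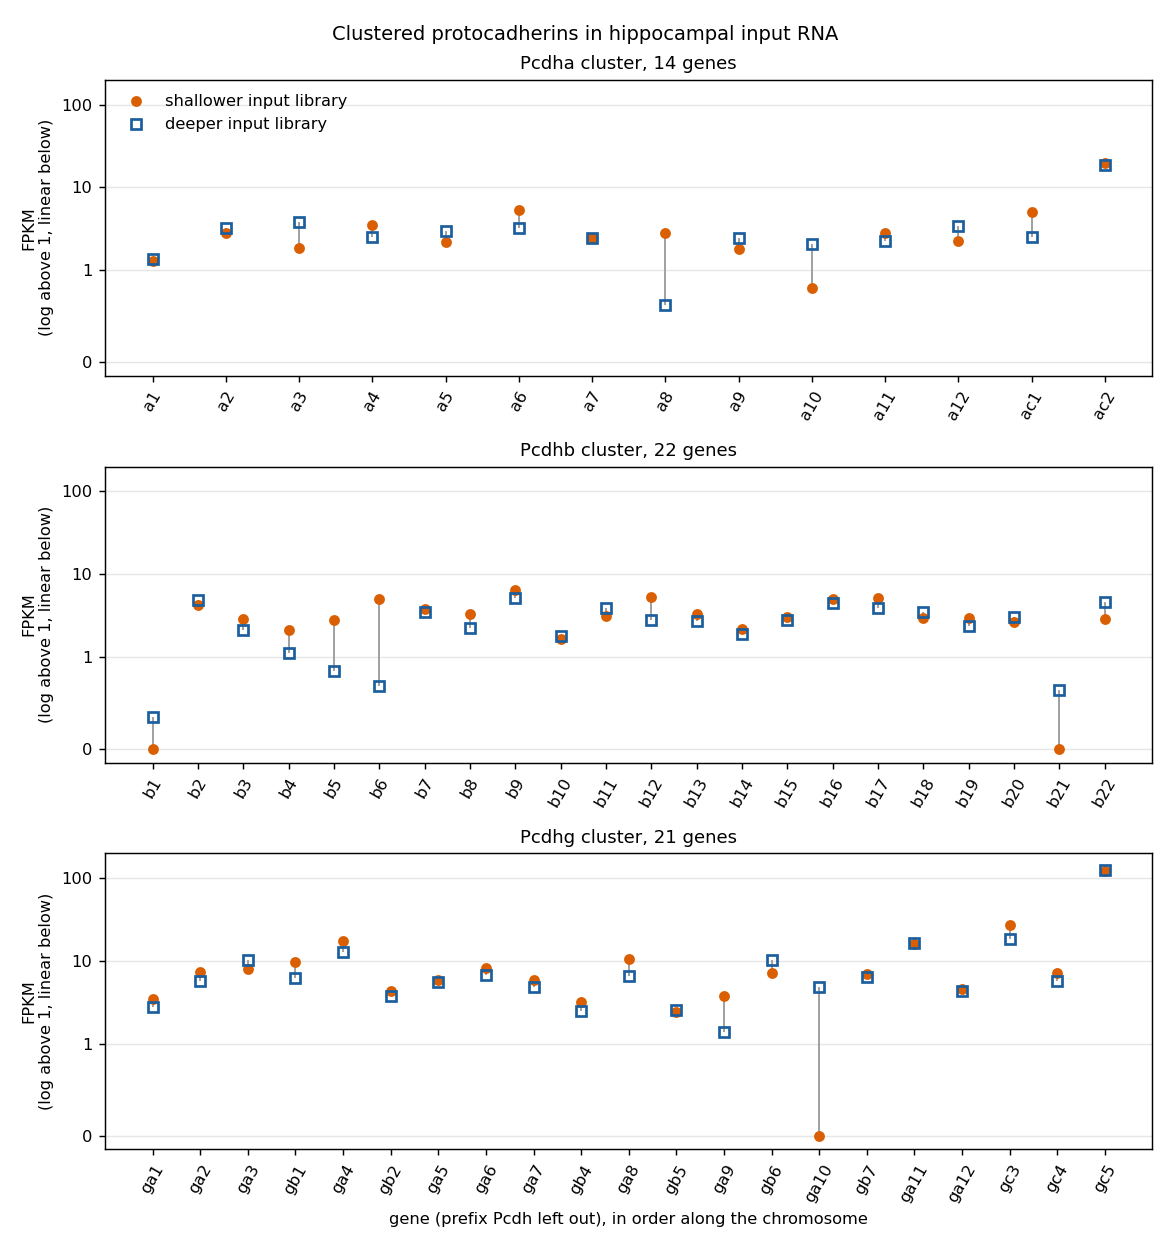
Deposited FPKM of the 57 clustered protocadherins in gene order, in the shallower (filled circles) and deeper (open squares) input library, on axes that are logarithmic above 1 and linear below. The last genes of the Pcdha and Pcdhg clusters, Pcdhac2 and Pcdhgc5, lay highest in their panels, and Pcdhga10 and Pcdha8 were among the genes furthest apart between libraries.

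The alternate Pcdha genes formed a low band. All 12 had between 1 and 6 FPKM on average, with a summed 373 and 504 counts. By CPM the highest were Pcdha6 (65 and 52 counts) and Pcdha2 (36 and 54 counts). The lowest were Pcdha1, the first gene of the cluster, with 17 and 23 counts, and Pcdha10, with 11 and 37. GENCODE M21 gives the symbol Pcdha11 to both ENSMUSG00000007440 and a neighbour. RefSeq on the same build places Pcdha10 at the first, which is called Pcdha10 here. Across the 12 alternate genes the log2 CPM of the libraries had a Pearson's r of 0.10 and a Spearman's rho of 0.03, and the rho of FPKM was 0.26. The genes thus lay in different orders in the 2 libraries. The coefficient of variation of FPKM across them was 46.2% and 35.5%.

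The Pcdhb genes also formed a low band, and 20 of the 22 had between 1 and 6 FPKM on average. By CPM the highest were Pcdhb16 (68 and 79 counts), Pcdhb17 (62 and 60), Pcdhb19 (54 and 56) and Pcdhb14 (49 and 55). By FPKM Pcdhb14 had 2.05 ± 0.213 and Pcdhb19 2.65 ± 0.423, below the group's median of 2.88, since their transcripts are 8695 and 7138 bases long. The lowest were Pcdhb1 at the start of the cluster, with 0 and 3 counts, and Pcdhb21 with 0 and 10. Log2 CPM of the 20 Pcdhb genes with a count in both libraries correlated at r = 0.67 (rho = 0.78) between the libraries, and the rho of FPKM was 0.52.

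The alternate Pcdhg genes lay higher. Their median FPKM was 6.15, against 2.56 for the alternate Pcdha genes and 2.88 for the Pcdhb genes, and by own bases 11.7 ± 2.00 CPM per kb against 6.00 ± 0.544 and 2.83 ± 0.093. Pcdhga11 was the highest alternate gene by CPM, with 194 and 259 counts, or 15.9 and 16.3 FPKM. Pcdhga3 followed with 97 and 164 counts. The lowest by CPM were Pcdhga9, with 38 and 18 counts, and Pcdhgb5, with 29 and 39. By FPKM the order differed. Pcdhga4 (15.0 ± 3.13) came next after Pcdhga11 and lay above Pcdhga3 (9.22 ± 1.70), and Pcdhga10 was lowest (2.44 ± 3.45). The 12 genes of the A type had 987 and 1192 counts in all and the 6 of the B type 380 and 469, with median FPKM of 6.15 and 5.41. Log2 CPM of the 17 alternate genes with a count in both libraries correlated at r = 0.89 (rho = 0.85). Across the 11 non-clustered genes with a count it was r = 0.99 (rho = 0.96). These correlations are across genes, which are not independent replicates, and the groups differ in their range of levels and in depth of counts.

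The members split evenly between the libraries. Of the 65 at 5 CPM or more, 32 had a log2 ratio above 0 and 33 below, and the median was -0.00, as it was for all 12218 genes at that level. The group sums had log2 ratios of 0.08 (-0.06 to 0.22) for Pcdha, -0.06 (-0.21 to 0.09) for Pcdhb, 0.05 (-0.02 to 0.13) for Pcdhg and 0.20 (0.14 to 0.26) for the non-clustered genes. The last interval alone left out 0. Which intervals did so depended on the library factors. With library totals in place of TMM factors, which put the median of all genes at -0.14, the ratios were -0.061 (-0.20 to 0.08) for Pcdha, -0.20 (-0.35 to -0.05) for Pcdhb, -0.094 (-0.17 to -0.02) for Pcdhg and 0.055 (-0.0025 to 0.11) for the non-clustered genes. On that scale the intervals of Pcdhb and Pcdhg left out 0 and that of the non-clustered genes did not. Among single members the interval left out 0 for 21 of 65, 11 upward and 10 downward, against 36.5% of all genes at 5 CPM or more (18.6% upward and 17.9% downward). The 3 non-clustered genes among them, Pcdh1, Pcdh20 (0.37, 0.19 to 0.55) and Pcdh9 (0.29, 0.07 to 0.50), were all higher in the deeper library.

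At least 2-fold apart were 7 of the 65 members, against 9.53% of all genes at 5 CPM or more (1164 of 12218). All 7 were clustered genes at under 30 CPM, where the share over all genes was 14.6%. Of the 44 members at that level, 42 were clustered and 2 were not, so that all 7 were clustered is not a difference between the groups. None of the 29 members at 20 CPM or more was 2-fold apart, against 3.93% of all genes at that level. Higher in the deeper library were Pcdha3, Pcdha10 and Pcdhga10, against 3.64% of all genes in that direction. Pcdha3 had 25 and 67 counts, with a log2 ratio of 1.15 (0.51 to 1.91), and Pcdha10 had 1.41 (0.51 to 2.63). Higher in the shallower library were Pcdha8, Pcdhb5, Pcdhb6 and Pcdhga9, against 5.88%. Pcdha8 had 38 and 11 counts, with a ratio of -1.88 (-3.14 to -1.03). Pcdhb5 had 25 and 10 counts (-1.42, -2.78 to -0.45) and its neighbour Pcdhb6 had 28 and 5 (-2.39, -4.45 to -1.33). Pcdhga9 had a ratio of -1.24 (-2.21 to -0.47).

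**Figure D4:**
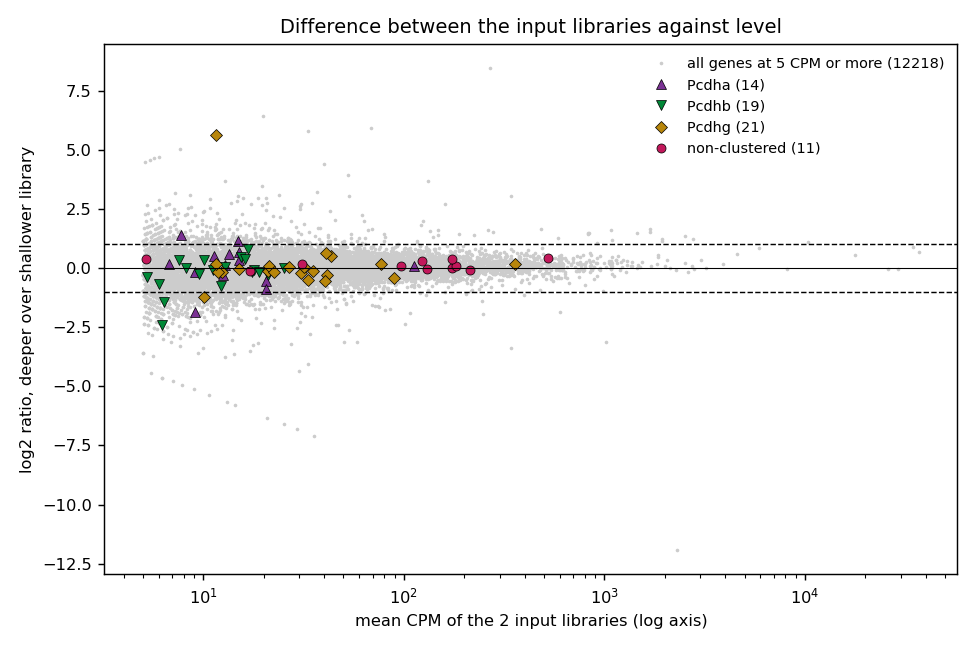
Log2 ratio of the deeper over the shallower input library against mean CPM (log axis) for all 12218 genes at 5 CPM or more (grey) and the 65 protocadherins among them (coloured by group). Dashed lines mark a 2-fold difference. The 7 members beyond the lines were at under 30 CPM, where 42 of the 44 members were clustered genes, and the 11 non-clustered genes lay between -0.14 and 0.44.

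Pcdhga10 was the furthest apart, with 0 counts at the lower depth and 77 at the higher, which is 23.1 CPM (exact 95% Poisson interval 18.2 to 28.9). With the shallower library set at 3 counts, the deeper was at least 21.8-fold higher. This leaves out the counting error of the deeper library. The lower end of the exact interval of the log2 ratio was 4.11. The variable exon of Pcdhga10 lies wholly within exons of the noncoding gene Gm26672 on the other strand. Gm26672 went the other way, with 37 and 3 counts. Their counts summed to 37 and 80, for which the log2 ratio was 0.85. The strand setting of the counting is not given in the sources used here, so reads of the pair cannot be told apart. Pcdhga11 lies over Gm26672 for 29.0% of its exonic bases and differed little between the libraries (0.18, -0.09 to 0.46). Pcdhgb8, annotated as a polymorphic pseudogene and therefore no member, lies in the same stretch of the cluster and had 48 and 15 counts, a log2 ratio of -1.81 (-2.86 to -1.05).

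Shared sequence was common among the alternate genes and among the Pcdhb genes, 21 of 22 of which shared some. Of the 69 longest coding exons, 15 shared 0% of their 31-base words with another gene, and 10 of these belonged to non-clustered genes. The median shared was 28.6% for the alternate Pcdha genes, 17.4% for Pcdhb and 20.03% for the alternate Pcdhg genes. Pcdha4 was covered over its whole coding exon by the read-through gene Gm42416, which runs from Pcdha4 into the Pcdhg constant exons. Pcdha4 had 37 and 35 counts and Gm42416 had 28 and 16. Pcdhb12 shared 78.2%, mainly with the antisense gene Gm37446, and had 41 and 28 counts beside 17 and 17. Levels of such genes are uncertain, since how reads with several matches were treated is not given in the sources used here. The 7 members 2-fold apart shared from 8.69% (Pcdhga9) to 100% (Pcdhga10) of their words.

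Genes that act with the protocadherins were measured in the same libraries, from lists of regulators of promoter choice, of cytoplasmic and membrane partners, of cleavage enzymes and of other cadherins. Of 18 regulators 17 reached 5 CPM, with a median log2 ratio of 0.27. Among the highest by CPM were the transcription factor gene Yy1 (255 and 354 counts) and the DNA methyltransferase gene Dnmt3a (269 and 304). Of the 17, 2 were 2-fold apart, against 9.53% of all genes at 5 CPM or more and 14.6% at 5 to under 30 CPM, where both lay. They were Ctcf and Nipbl, which went opposite ways. Ctcf, whose protein binds the cluster promoters and enhancers, had 72 and 41 counts, a ratio of -1.02. Nipbl, which loads cohesin, had 49 and 134 counts, a ratio of 1.19. The Pcdhg and Pcdha sums had ratios near 0 with TMM factors, as given above, and a relation to Ctcf or Nipbl was not tested.

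Of 22 partner genes 21 reached 5 CPM and 0 were 2-fold apart, with a median log2 ratio of 0.20. The share of all genes 2-fold apart was 9.53% at 5 CPM or more and 2.92% at 30 CPM or more. They were led by Cyfip2, a subunit of the WAVE complex that several protocadherins bind (2917 and 3957 counts), Ptk2b, the kinase PYK2 that Pcdha and Pcdhg constant domains inhibit (1780 and 1550), and Nlgn2, a neuroligin of inhibitory synapses (939 and 1171). Of 8 genes for shedding and intramembrane cleavage 7 reached 5 CPM. Adam10, the main sheddase of Pcdhg proteins, had 143 and 171 counts, and the gamma-secretase gene Aph1b had 95 and 112. The sheddase gene Adam17 (49 and 17 counts, ratio -1.67) and Psen2 (22 and 10, -1.25) were 2-fold higher in the shallower library, against 5.88% of all genes at 5 CPM or more in that direction. Both lay at 5 to under 30 CPM, where 14.6% of all genes were 2-fold apart in either direction. The other listed cleavage genes at that level were not 2-fold apart. Of 38 other cadherin genes found among 41 listed, 26 reached 5 CPM and 0 were 2-fold apart, against the same 9.53% of all genes, with a median ratio of -0.05. The calsyntenin gene Clstn1 (2374 and 2644 counts) and the atypical cadherin genes Celsr2 (1524 and 1548) and Fat3 (865 and 1166) were the highest by CPM.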

How the data were processed

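Per the labels' protocols, hippocampal tissue was lysed with the buffer of an RNA immunoprecipitation kit and RNA was harvested with Trizol. For each of the 2 input libraries, the authors deposited a raw read count and an FPKM per gene. Per the submitters' processing notes the build was GRCm38 and the tools included HOMER, BWA 0.7.12 and MACS2 2.1.0. The counting tool, its handling of strand and of multiple matches, and its annotation were not given in the sources used here. The input columns could not be tied to replicate numbers and are called by depth (2563069 and 3334451 counts). No column of values was left unused.

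Genes were named through GENCODE M21. The members and gene lists were chosen with earlier results of these data known. Named genes were all non-clustered and C-type members, the 4 highest and 2 lowest by mean CPM in each cluster, members 2-fold apart, and the 3 highest and all 2-fold apart genes of each list. Pcdha4, Pcdha11, Pcdhb10, Pcdhb12, Pcdhga4 and the genes outside the Pcdh symbols that overlap members were named after their values were seen. A few genes picked by the rule are not reported here. Ratios used TMM factors (edgeR 4.0.16; 1.05 and 0.951) over genes at a mean of 5 CPM or more and 0.5 CPM as pseudocount. The computation was tested on simulated counts with known changes. Overlaps and 31-base words were computed from GENCODE M21 and promoter CG from RefSeq GRCm38.p6.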

Additional observations from a re-analysis of the deposited data

How the results depend on the processing

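No paired analysis was possible because the columns carry no replicate number and there is 1 group. With 2 libraries, 2563069 and 3334451 counts deep, a 2-fold difference of a member at under 30 CPM rested on few counts. Summed CPM for Pcdha, Pcdhb, Pcdhg and non-clustered genes was 383, 340, 1341 and 2273 over nuclear protein-coding genes, 53.1, 64.9, 274 and 420 as FPKM, and 109, 66.6, 371 and 198 per kilobase of own bases. Counting as own also the bases that have a gene only on the other strand, a setting chosen after seeing the data, the sums were 100.2, 59.6, 310.3 and 192. In single libraries the summed CPM ranged from 276 to 288 for Pcdha, 233 to 268 for Pcdhb, 956 to 1020 for Pcdhg and 1641 to 1705 for non-clustered genes, and the members at 5 CPM or more numbered 13 in each for Pcdha, 16 to 19 for Pcdhb, 20 to 21 for Pcdhg and 10 to 11 for non-clustered genes. With a minimum of 20 CPM, 3 Pcdha and 2 Pcdhb genes passed, and with 10 CPM 12 Pcdhb genes. With library totals the median log2 ratio of all genes moved from -0.00 to -0.14, and those of the sums became -0.061 for Pcdha, -0.20 for Pcdhb, -0.094 for Pcdhg and 0.055 for non-clustered genes, which had 0.26 with DESeq2 size factors. Pcdha and Pcdhg thus changed sign. The members 2-fold apart numbered 3 at 10 CPM or more and 0 at 20, by fewer genes tested, and 5 without members that overlap a gene outside the Pcdh genes, an alternative added after seeing the data. Of the values under alternatives, 51 moved by less than the spread between libraries or, for counts, stayed within 1.5 times, and 25 did not. The 25 include every group sum over nuclear protein-coding genes, as FPKM or per own bases. For those sums a move from CPM was fixed by the change of denominator or unit.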
